A study of Rattus norvegicus with 12 samples.

Results

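The collapsin response mediators and the stathmins are phosphoproteins that bind tubulin. All 9 rat genes of these families that were looked for were found in the deposited count table by gene name, 5 collapsin response mediators (Crmp1, Dpysl2, Dpysl3, Dpysl4 and Dpysl5) and 4 stathmins (Stmn1, Stmn2, Stmn3 and Stmn4), out of 30454 genes. Of these 9, 8 had at least 1 count and 6 passed the filter on low counts, together with 13686 other genes. Bulk RNA sequencing covered 12 libraries of rat cells labelled PC12, a line from an adrenal chromaffin tumour. In the group rTMS-MSCs (4 libraries) the cells had been through oxygen-glucose deprivation and reoxygenation, and the treatment combined mesenchymal stem cells (MSCs) with 10 Hz repetitive transcranial magnetic stimulation (rTMS). The group MSCs (4 libraries) had the same deprivation and the stem cells without stimulation. The group OGDR (4 libraries) had deprivation and reoxygenation alone, and all groups are described at 48 h after treatment. Every group was thus deprived and reoxygenated, and cells without deprivation were not analysed here. The species of the stem cells, whether they stayed with the PC12 cells at harvest, and which of the cells were stimulated are not stated by the labels. The labels do not say whether the 4 libraries of a group were separate cultures, so p-values measure the spread between these libraries, which may be technical.

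Collapsin response mediators carry signals of semaphorin 3A to the cytoskeleton. They bind tubulin dimers and promote microtubule growth until kinases such as Cdk5 and Gsk3b phosphorylate them. Stathmins act in the other direction: they hold tubulin dimers apart from the microtubule and favour its shrinkage, and phosphorylation by mitotic and stress kinases releases the tubulin. Stmn1 is abundant in dividing cells, while Stmn2, Stmn3 and Stmn4 are membrane-bound relatives known from neurons. In PC12 cells, neurite growth after nerve growth factor is a textbook model in which Stmn2 was studied.

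The libraries held 18246250 to 20471838 counts each in genes. Defining markers of the labelled cell type were scarce. Of 10 chromaffin markers none averaged 10 CPM (TMM-scaled counts for each 1000000 reads in genes), and the list summed to 12.6 to 14.0 CPM in rTMS-MSCs, 12.3 to 13.0 CPM in MSCs and 9.55 to 14.1 CPM in OGDR. Of 12 neuronal markers 3 (Syt1, Nefl and Elavl4) had no count and 2 averaged at least 10 CPM, with sums of 114 to 162 CPM in rTMS-MSCs, 102 to 111 CPM in MSCs and 85.2 to 95.2 CPM in OGDR. Of 10 glial and Schwann cell markers 8 averaged at least 10 CPM, and they summed to 1261 to 1361 CPM in rTMS-MSCs, 1248 to 1328 CPM in MSCs and 1036 to 1132 CPM in OGDR. The libraries rTMS-MSCs 3 and MSCs 3 stood apart at opposite ends of the second principal component (scores of 32.4 and -30.8, against -21.0 to 12.7 in the other 10), which carried 18.1% of the variance. Where a member's call changes without these 2 libraries, both values are given.

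Adding stem cells went with higher levels of 3 collapsin response mediators. In MSCs against OGDR, Crmp1 rose 1.99-fold, Dpysl3 1.63-fold and Dpysl2 1.23-fold. Stmn4 passed the filter on low counts through the OGDR libraries, where it was highest, so a difference from OGDR was favoured by the filter and it is left out of the counts of calls. Of the other 5 tested members 3 rose and 0 fell, whereas 20.2% of the 13692 tested genes passed in that comparison, 11.6% as higher and 8.63% as lower. The 4 libraries of each group did not overlap for 3 of the 5, and for 24.7% of all tested genes. A change means an adjusted p under 0.05 in the edgeR quasi-likelihood test with Benjamini-Hochberg adjustment over all tested genes.

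Stimulation on top of the stem cells separated the members. In rTMS-MSCs against MSCs, Dpysl3 fell to 0.597 of its level and Dpysl2 to 0.858, Stmn1 rose 1.22-fold, and Crmp1 did not pass. Here 1 member rose and 2 fell among the 5, against 18.1% of all tested genes in either direction, 7.14% higher and 10.9% lower. The groups did not overlap for 3 of the 5 members, and for 19% of all tested genes. The number of genes called in this comparison was 2475 with all libraries, 1480 without rTMS-MSCs 3, 1313 without MSCs 1, 1006 without MSCs 3 and 677 without both replicate 3 libraries. In rTMS-MSCs against OGDR, Crmp1 rose 2.05-fold and Stmn1 1.31-fold, and none of the 5 fell, beside 32.4% of tested genes called, 16.2% in each direction. The groups did not overlap for 2 of the 5 members, and for 30.3% of all tested genes. The 3 comparisons share libraries, so they are not independent of each other.

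**Figure D1:**
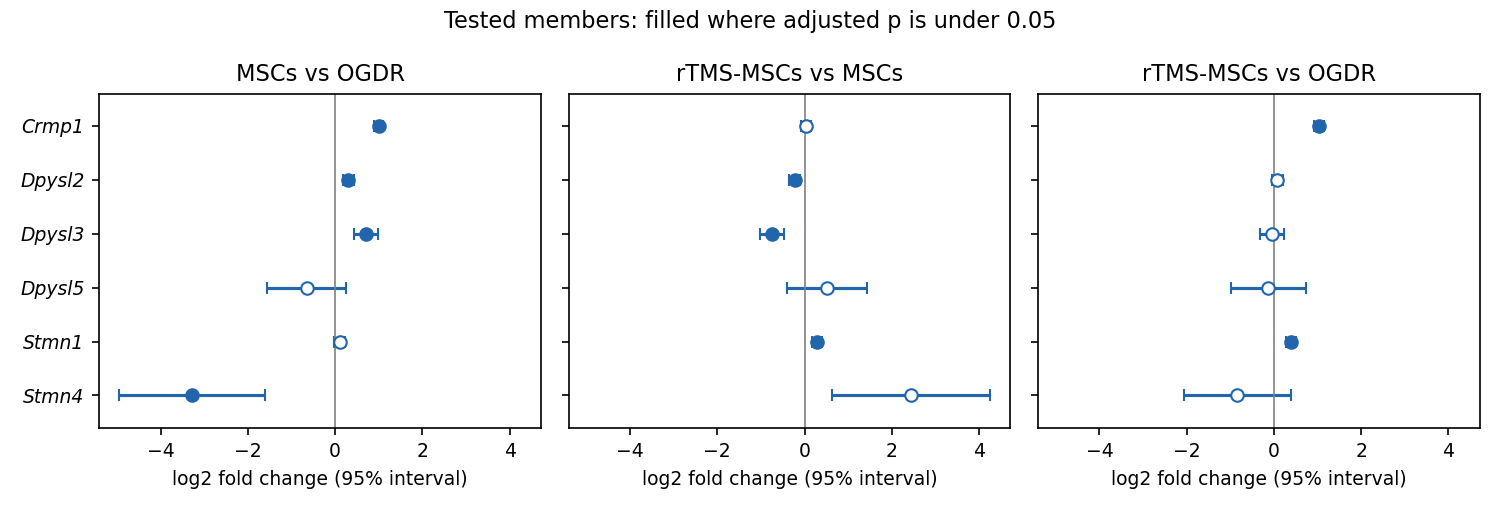
Log2 fold changes (x axis) of the 6 tested members (y axis) in the 3 comparisons, with 95% intervals from the edgeR quasi-likelihood fit. Filled points passed at an adjusted p under 0.05. Stmn4 passed the filter on low counts through OGDR, which favours a difference from that group. Crmp1 lies near 1 in both comparisons with OGDR and near 0 in rTMS-MSCs against MSCs, while Dpysl3 lies at 0.70, -0.74 and -0.04.

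Crmp1, which takes part in semaphorin 3A signalling, was higher in every library with stem cells. It had 488, 504, 499.8 and 452 CPM in rTMS-MSCs libraries 1 to 4, 469.6, 501, 446 and 471 CPM in MSCs, and 248, 247, 226 and 227 CPM in OGDR. The lowest library with stem cells was above the highest OGDR library, and rTMS-MSCs and MSCs overlapped. The log2 fold change was 0.99 ± 0.0544 (SE) in MSCs against OGDR (adjusted p = 2.41e-11, edgeR) and 1.04 ± 0.0544 in rTMS-MSCs against OGDR (adjusted p = 1.17e-11). Of the tested genes, 97.8% had a lower log2 fold change than Crmp1 in MSCs against OGDR. Between rTMS-MSCs and MSCs it was 0.04 ± 0.0536 (adjusted p = 0.618), with a 95% interval from -0.07 to 0.15. This covers levels from 0.953 to 1.11 times that of MSCs. Over 22 alternative settings the log2 fold change in MSCs against OGDR ran from 0.96 to 1.02.

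**Figure D2:**
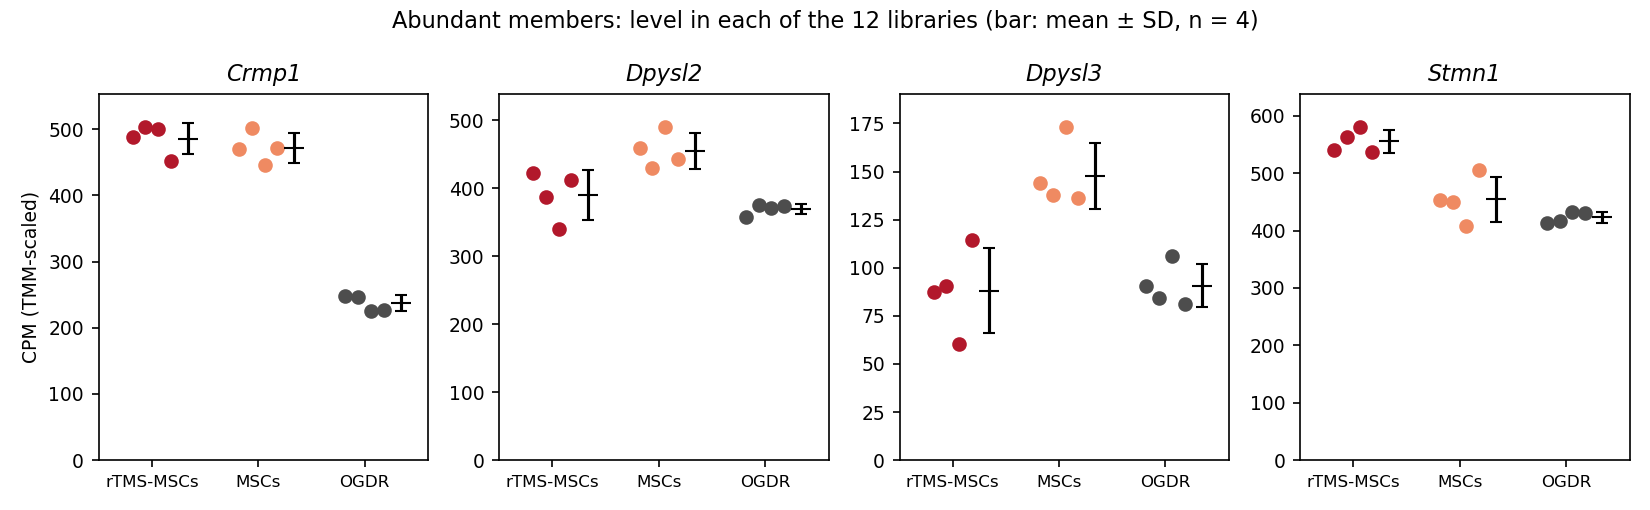
Level in CPM (y axis, from 0) of Crmp1, Dpysl2, Dpysl3 and Stmn1 in each library of rTMS-MSCs, MSCs and OGDR, with points for libraries 1 to 4 from left to right and a bar for the mean ± SD (n = 4). The Crmp1 levels of OGDR lie at 226 to 248 CPM, below all 8 libraries with stem cells, and the lowest Dpysl3 level is that of rTMS-MSCs 3 at 60.3 CPM.

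Dpysl2 (also called Crmp2), which carries tubulin to growing axon tips and is the best known substrate of Gsk3b in the family, moved less. It had 423, 387, 340.5 and 413 CPM in rTMS-MSCs, 459, 429.6, 491 and 443 CPM in MSCs, and 358, 376, 371 and 374 CPM in OGDR. All 4 MSCs libraries lay above all libraries of the other groups, and the rTMS-MSCs libraries lay on both sides of OGDR. Dpysl2 was higher in MSCs than in OGDR by 0.30 ± 0.0615 log2 units (edgeR adjusted p = 0.00121). It was lower in rTMS-MSCs than in MSCs, with a log2 fold change of -0.22 ± 0.0615 (adjusted p = 0.0189). That call depended on single libraries, since it did not pass without MSCs 1 (-0.22, adjusted p = 0.0559), without MSCs 3 (-0.18, adjusted p = 0.0898) or without both replicate 3 libraries (-0.12, adjusted p = 0.172). In rTMS-MSCs against OGDR the value was 0.08 ± 0.0615 (adjusted p = 0.347), and it passed at 0.14 without rTMS-MSCs 3 (adjusted p = 0.0424) and at 0.14 without both replicate 3 libraries (adjusted p = 0.0278).

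Dpysl3 (also called Crmp4), which bundles actin filaments in growth cones, was highest in MSCs. It had 87.2, 90.5, 60.3 and 115 CPM in rTMS-MSCs, 144, 138, 173 and 136 CPM in MSCs, and 90.7, 84.5, 106 and 81.3 CPM in OGDR. The MSCs libraries did not overlap with either other group, while the OGDR range lay within that of rTMS-MSCs. The log2 fold change was 0.70 ± 0.131 in MSCs against OGDR (edgeR adjusted p = 4.71e-04) and -0.74 ± 0.131 in rTMS-MSCs against MSCs (adjusted p = 0.00183). Without both replicate 3 libraries these were 0.62 and -0.51 (adjusted p = 8.83e-07 and 9.81e-04). In rTMS-MSCs against OGDR it was -0.04 ± 0.131 (adjusted p = 0.847), with an interval from -0.31 to 0.23, and it turned to 0.10 without rTMS-MSCs 3. Its spread within a group was the widest of the 4 abundant members, with a coefficient of variation of 25.2% in rTMS-MSCs, 11.7% in MSCs and 12.2% in OGDR, against at most 9.41% for the others. The lowest value was in rTMS-MSCs 3 and the highest in MSCs 3, the libraries at the 2 ends of the second principal component.

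The sequences at the starts of Crmp1 and of Dpysl3 are shown because both members rose with stem cells, while with stimulation Dpysl3 fell and Crmp1 did not pass. RefSeq sequence of build GRCr8 gives 250 bases before and 50 after each start, 5′ to 3′ on the gene's strand, and 6 of the 9 members had an entry. RefSeq gives 2 starts for Dpysl3, and counts per gene cannot tell them apart. Capitals mark the GC box GGGCGG on either strand.
Crmp1, chr14:77780867-77781166, minus strand: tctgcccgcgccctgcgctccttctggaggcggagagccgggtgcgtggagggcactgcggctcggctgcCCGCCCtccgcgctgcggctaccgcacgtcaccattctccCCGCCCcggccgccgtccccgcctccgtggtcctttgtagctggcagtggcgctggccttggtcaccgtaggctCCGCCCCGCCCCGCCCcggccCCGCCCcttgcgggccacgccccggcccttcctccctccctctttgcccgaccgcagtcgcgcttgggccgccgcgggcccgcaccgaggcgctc
Dpysl3 start 1, chr18:35731103-35731402, minus strand: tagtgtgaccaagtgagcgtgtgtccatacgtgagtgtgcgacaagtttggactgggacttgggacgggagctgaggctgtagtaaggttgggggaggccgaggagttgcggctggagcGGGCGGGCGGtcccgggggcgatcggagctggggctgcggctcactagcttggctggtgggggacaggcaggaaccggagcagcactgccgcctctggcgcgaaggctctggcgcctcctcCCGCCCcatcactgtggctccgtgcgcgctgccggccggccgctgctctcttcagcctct
Dpysl3 start 2, chr18:35688462-35688761, minus strand: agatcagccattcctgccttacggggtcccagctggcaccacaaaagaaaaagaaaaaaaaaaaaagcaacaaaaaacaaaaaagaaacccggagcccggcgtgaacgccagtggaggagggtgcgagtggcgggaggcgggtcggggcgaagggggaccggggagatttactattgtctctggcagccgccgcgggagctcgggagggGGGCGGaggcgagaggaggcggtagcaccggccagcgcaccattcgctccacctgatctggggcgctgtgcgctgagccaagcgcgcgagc
The Crmp1 window held 6 GC boxes, 3 of them in a run in which neighbours share a base. The windows of Dpysl3 held 3 and 1, and the first 2 of start 1 also overlap. A GC box stands in 33.1% of all 33469 RefSeq promoter windows of this length. The windows had a GC content of 77.7% at Crmp1 and of 68.0% and 62.3% at the starts of Dpysl3, against a median of 51.7% over all windows. Matches to 6 other motifs were also sought on both strands, none of which was found in these 3 windows. They were CCAAT (in 37.5% of all windows), the E-box CACGTG (6.42%), the E2F motif TTTNGCGC (1.28%), the cyclic AMP element TGACGTCA (1.83%), the Egr motif GCGNGGGCG (4.98%), which can overlap a GC box, and the palindrome bound by the glucocorticoid receptor (0.0149%). A match or its lack describes only these letters in these windows.

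Dpysl4 (Crmp3) had 0 counts in all 12 libraries, so it was not detected. A count of 0 allows up to 3 counts over a group, or 0.0381 CPM in rTMS-MSCs, 0.0394 CPM in MSCs and 0.0373 CPM in OGDR, and covers counting error only. Mapk3, a kinase that most cells use, was also at 0 in every library, so a 0 in this table does not by itself show that a gene is silent. Dpysl5 (Crmp5), which is known to oppose outgrowth driven by Dpysl2, was close to the limit of detection. Its counts were 9, 28, 12 and 12 in rTMS-MSCs, 8, 14, 8 and 12 in MSCs, and 20, 18, 23 and 9 in OGDR. The groups overlapped in all 3 comparisons. Its log2 fold changes were -0.65 ± 0.433 in MSCs against OGDR (edgeR adjusted p = 0.327), 0.52 ± 0.439 in rTMS-MSCs against MSCs (adjusted p = 0.429) and -0.13 ± 0.413 in rTMS-MSCs against OGDR (adjusted p = 0.842). The interval in MSCs against OGDR spans folds from 0.341 to 1.19, so neither a fall of that size nor a small rise could be told from no difference at this depth.

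Ratios of counts between members within a library need no scaling between libraries, and they are compared here only across libraries since transcript lengths were not used. The ratio of Crmp1 to Dpysl2 was 1.26 ± 0.166 in rTMS-MSCs, 1.04 ± 0.107 in MSCs and 0.641 ± 0.0408 in OGDR (mean ± SD, n = 4). All 8 libraries with stem cells lay above all OGDR libraries, whose highest ratio was 0.692. The ratio of Dpysl3 to Crmp1 was 0.183 ± 0.0543 in rTMS-MSCs, 0.315 ± 0.0509 in MSCs and 0.384 ± 0.0585 in OGDR. All rTMS-MSCs libraries (0.121 to 0.253) were below all MSCs libraries (0.275 to 0.388), and MSCs overlapped with OGDR (0.343 to 0.471). The ratio of Dpysl3 to Dpysl2 was 0.224 ± 0.0428 in rTMS-MSCs, 0.324 ± 0.0203 in MSCs and 0.246 ± 0.0312 in OGDR, with MSCs above both other groups in every library. The summed level of the collapsin response mediators came to 901 to 998 CPM in rTMS-MSCs, 1051 to 1110.2 CPM in MSCs and 683 to 708 CPM in OGDR, with no overlap between any 2 groups.

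**Figure D3:**
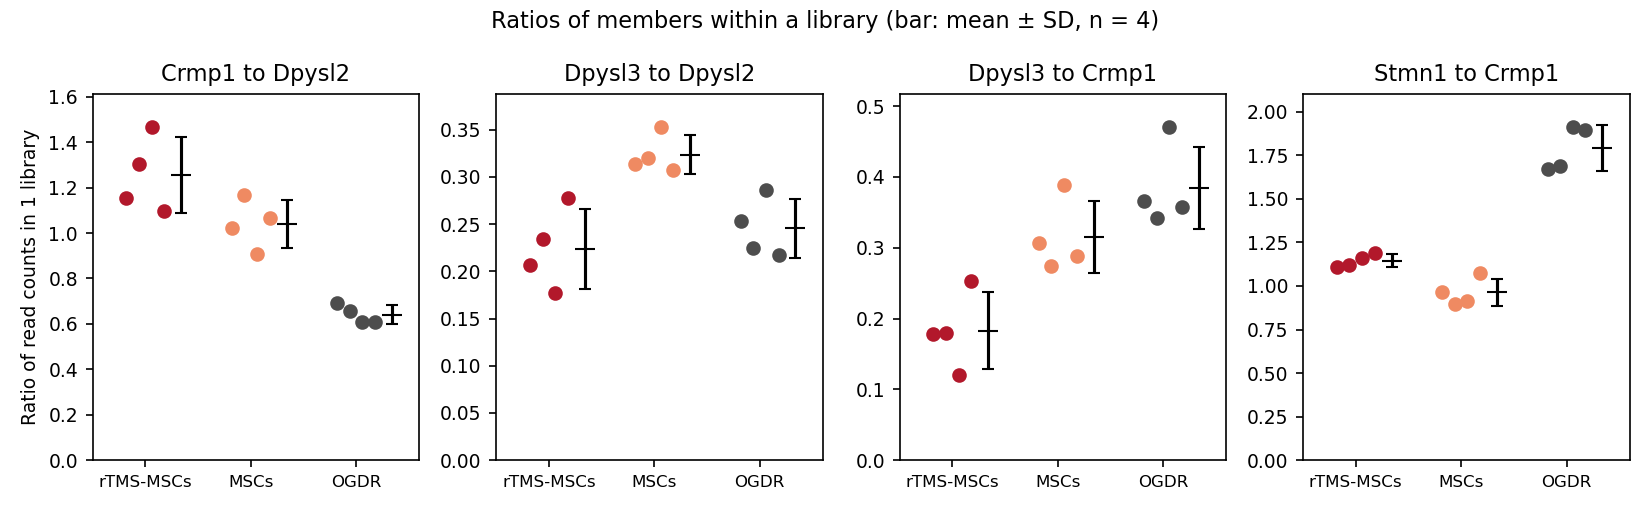
Ratio of read counts of 2 members in the same library (y axis, from 0) by group, with points for libraries 1 to 4 and a bar for the mean ± SD (n = 4). Crmp1 to Dpysl2 is lowest in OGDR (0.608 to 0.692), Dpysl3 to Dpysl2 is highest in MSCs (0.308 to 0.353), and Stmn1 to Crmp1 is highest in OGDR (1.67 to 1.91).

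Stmn1 (stathmin, also Op18), the form of dividing cells, rose with stimulation. It had 541, 563, 581 and 537 CPM in rTMS-MSCs, 454, 449.8, 409 and 505 CPM in MSCs, and 414, 417, 432 and 431 CPM in OGDR. Every rTMS-MSCs library was above every other library, and MSCs overlapped with OGDR through MSCs 3. The log2 fold change was 0.29 ± 0.0564 in rTMS-MSCs against MSCs (edgeR adjusted p = 0.00294) and 0.39 ± 0.0565 in rTMS-MSCs against OGDR (adjusted p = 2.29e-05). In MSCs against OGDR it was 0.10 ± 0.0565 (adjusted p = 0.226), and it passed at 0.15 (adjusted p = 0.0258) without both replicate 3 libraries. The ratio of Stmn1 to Crmp1 was 1.14 ± 0.0373 in rTMS-MSCs, 0.963 ± 0.0782 in MSCs and 1.79 ± 0.131 in OGDR, with no overlap between any 2 groups. RefSeq lists stathmin-like pseudogenes in the rat, and the handling of reads shared with them is not stated, so the level of Stmn1 is uncertain to that extent.

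Beside Stmn1, 5 proliferation markers (Mki67, Top2a, Pcna, Mcm2 and Ccnb1) summed to 1418 to 1538 CPM in rTMS-MSCs, 1435 to 1537 CPM in MSCs and 1323 to 1394 CPM in OGDR. The sums of rTMS-MSCs and MSCs overlapped, and both lay above OGDR. Against OGDR, Mcm2 was higher by 0.28 in MSCs (edgeR adjusted p = 0.00200) and by 0.26 in rTMS-MSCs (adjusted p = 0.00229). Pcna was higher by 0.23 in rTMS-MSCs (edgeR adjusted p = 0.00348) and did not pass in MSCs (adjusted p = 0.554). Mki67, Top2a and Ccnb1 passed in neither comparison with OGDR. In rTMS-MSCs against MSCs, where Stmn1 rose, the replication clamp Pcna was higher by 0.18 (edgeR adjusted p = 0.0343), though its groups overlapped. The other markers did not pass. The proliferation antigen Mki67 had a log2 fold change of -0.14 (adjusted p = 0.113) and Top2a one of -0.15 (adjusted p = 0.104). For Mcm2 it was -0.01 (adjusted p = 0.888) and for Ccnb1 0.05 (adjusted p = 0.470). The part of cell division in the Stmn1 difference was not tested.

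The start of Stmn1 is shown because it held matches to motifs that Crmp1 and Dpysl3 lacked. Capitals mark, from 5′ to 3′, a GC box, an E-box, a CCAAT box, a further E-box and an E2F motif, none of which overlap.
Stmn1, chr5:151964929-151965228, plus strand: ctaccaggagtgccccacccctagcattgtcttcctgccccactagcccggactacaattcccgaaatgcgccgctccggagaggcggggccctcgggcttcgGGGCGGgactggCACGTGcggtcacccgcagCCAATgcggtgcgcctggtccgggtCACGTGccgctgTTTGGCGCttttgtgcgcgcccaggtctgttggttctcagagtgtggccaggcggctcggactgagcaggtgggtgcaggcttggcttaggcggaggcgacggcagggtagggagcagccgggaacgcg
Counted from the start, the E-boxes begin at -135 and -91 and the E2F motif at -79. The window of Stmn1 is thus among the 1.28% of RefSeq promoter windows with that E2F motif. Its GC content was 68.3%.

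The 3 neuronal stathmins were scarce in every library. Stmn2 (SCG10), a marker of neurite growth, had counts of 2, 0, 4 and 3 in rTMS-MSCs, 9, 0, 2 and 3 in MSCs, and 6, 2, 4 and 5 in OGDR. Summed over a group these were 9 counts in rTMS-MSCs (exact Poisson 95% interval 4.12 to 17.1), 14 in MSCs (7.65 to 23.5) and 17 in OGDR (9.90 to 27.2). The intervals overlap and cover counting error only. It did not pass the filter and was not tested. Stmn3 (SCLIP) had 1, 3, 2 and 2 counts in rTMS-MSCs, 1, 0, 2 and 0 in MSCs, and none in OGDR. Its 8 counts over rTMS-MSCs had an exact Poisson 95% interval of 3.45 to 15.8, the 3 over MSCs one of 0.619 to 8.77, and the 0 over OGDR one of 0 to 3.69. All of these intervals overlap, which does not show that the groups are alike. Every rTMS-MSCs library had at least 1 count and no OGDR library had any, but no test was run on so few reads.

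Stmn4 (RB3) was the one neuronal stathmin that passed the filter, and it did so through OGDR, where it was highest. It had 14, 8, 0 and 8 counts in rTMS-MSCs, 0, 0, 3 and 2 in MSCs, and 13, 13, 19 and 11 in OGDR. No MSCs library reached the lowest OGDR library, and the rTMS-MSCs libraries ranged from 0 in library 3 to the OGDR level in library 1. The fitted log2 fold change was -3.28 ± 0.800 in MSCs against OGDR, and -4.10 without both replicate 3 libraries. It is given as a description with no test, since OGDR brought the gene past the filter, and the filter of at least 1 CPM in 4 libraries removed the gene. In rTMS-MSCs against MSCs the value was 2.44 ± 0.872 and just missed the threshold (adjusted p = 0.0571). It passed without rTMS-MSCs 3, the library with no read (2.84, adjusted p = 0.0164), and without both replicate 3 libraries (3.66, adjusted p = 0.0180), and over the alternatives that gave an adjusted p it ran from 0.00617 to 0.159. In rTMS-MSCs against OGDR it was -0.84 ± 0.588, and -0.44 without rTMS-MSCs 3. All of these rest on 30 counts in rTMS-MSCs, 5 in MSCs and 56 in OGDR.

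**Figure D4:**
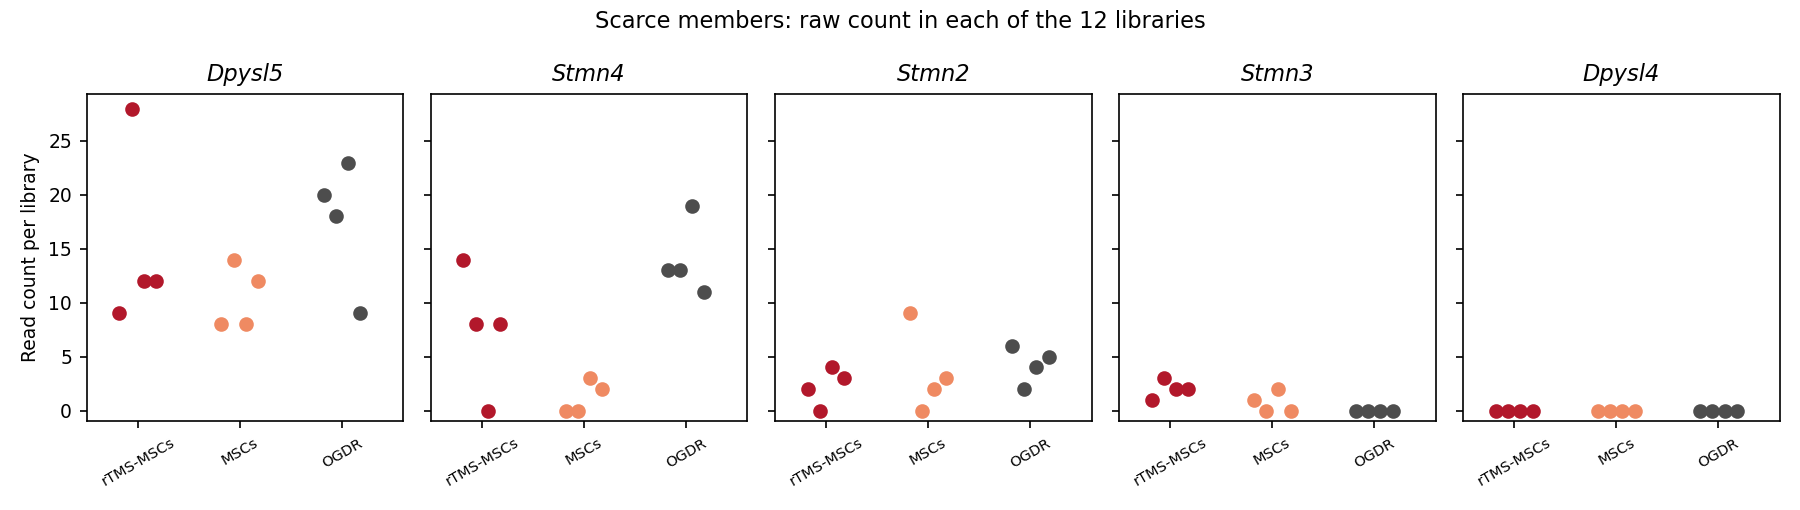
Raw read counts (y axis) of the 5 scarce members in each library of rTMS-MSCs, MSCs and OGDR, with points for libraries 1 to 4 from left to right. Stmn4 counts reach 11 to 19 in OGDR and 0 to 3 in MSCs, and Dpysl4 is at 0 in all 12 libraries.

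Markers of other cells moved beside these members. The summed neuronal list given above rested on few genes. Its most abundant genes were Prph (98.3 CPM in rTMS-MSCs, 75.2 in MSCs and 65.8 in OGDR) and Tubb3 (26.5 CPM in rTMS-MSCs, 24.3 in MSCs and 15.5 in OGDR). Tubb3 passed in MSCs against OGDR (0.65, edgeR adjusted p = 1.93e-05) and not in rTMS-MSCs against MSCs (adjusted p = 0.335). Prph passed in rTMS-MSCs against MSCs (0.39, edgeR adjusted p = 0.0111) and not in MSCs against OGDR (adjusted p = 0.180). Snap25 passed in neither (adjusted p = 0.782 and 0.947), while Gap43 had 1 count and Dcx 1 count over all libraries. The stromal and stem cell list of 10 genes, 3 of which averaged at least 10 CPM, summed to 281 to 359 CPM in rTMS-MSCs, 368 to 391 CPM in MSCs and 342 to 358 CPM in OGDR. The sum was thus highest in MSCs, like Dpysl2 and Dpysl3, but most of it was Pdgfra. That gene averaged 241 CPM in rTMS-MSCs, 292 CPM in MSCs and 286 CPM in OGDR. Pdgfra did not pass in MSCs against OGDR (edgeR adjusted p = 0.804) and fell by 0.27 in rTMS-MSCs against MSCs (adjusted p = 0.00819). Nt5e, Pdgfrb and the scarce Col3a1 rose in MSCs against OGDR by 0.73, 0.47 and 1.47, while Eng, Col1a1 and Col1a2 did not pass. Lum (0 counts), Dcn (1 count) and Thy1 (14 counts) were at or near 0 in all libraries. The macrophage list stayed between 2.32 and 4.63 CPM. The glial list was higher in both groups with stem cells, like Crmp1. The part of cell composition in these results was not tested, and in bulk RNA fewer cells of a type and less RNA per cell cannot be told apart.

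The genes whose pattern over the 12 libraries was most like that of a member were sought among 10248 other tested genes of at least 5 CPM, by the root mean square difference of centred log2 CPM. For Crmp1 the nearest were the endosomal ATPase gene Ehd3 (0.0511 log2 units), the collagen chain gene Col6a1 (0.0589) and the laminin chain gene Lamb2 (0.0646), where Crmp1 itself varied by 0.483. Ehd3 averaged 460.1 CPM in rTMS-MSCs, 459 CPM in MSCs and 223 CPM in OGDR. For Dpysl2 the nearest were the non-muscle myosin gene Myh10 (0.0429), the translation factor gene Eif4g3 (0.0444) and the semaphorin gene Sema6a (0.0484), against its own variation of 0.152.

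For Dpysl3 the nearest gene was Nrp1, the neuropilin that binds semaphorin 3A (0.0856, against a variation of 0.415), followed by the arrestin gene Arrb1 (0.104) and the BMP antagonist gene Chrdl1 (0.109). Nrp1 averaged 70.8 CPM in rTMS-MSCs, 107 CPM in MSCs and 63.9 CPM in OGDR. For Stmn1 the nearest were Prpsap1 (0.0488), a regulator of nucleotide precursor synthesis, the proteasome subunit gene Psma6 (0.0502) and the actin-binding thymosin gene Tmsb4x (0.0506), against a variation of 0.180. Tmsb4x averaged 819 CPM in rTMS-MSCs, 659 CPM in MSCs and 623 CPM in OGDR. For the scarce Dpysl5 and Stmn4 the nearest genes lay at 0.357 and 0.796, far wider than for the abundant members, and are not described.

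Genes that act with these proteins were followed in a list of 42 genes, of which 34 were tested. In MSCs against OGDR 7 of them rose and 0 fell, in rTMS-MSCs against MSCs 2 rose and 11 fell, and in rTMS-MSCs against OGDR 8 rose and 9 fell. Of all tested genes, 11.6% rose and 8.63% fell in MSCs against OGDR, and 7.14% and 10.9% in rTMS-MSCs against MSCs. In rTMS-MSCs against OGDR the share was 16.2% in each direction. The median log2 fold change of the list was 0.08, -0.10 and 0.04 in these comparisons, against 0.00, 0.02 and 0.01 over all tested genes.

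Of 9 tested genes for the reception of semaphorin 3A, 4 rose and 0 fell in MSCs against OGDR, 0 rose and 4 fell in rTMS-MSCs against MSCs, and 3 rose and 1 fell in rTMS-MSCs against OGDR. The shares of all tested genes that passed in these comparisons were 20.2%, 18.1% and 32.4%. Nrp1 rose by 0.75 ± 0.130 with stem cells (edgeR adjusted p = 2.52e-04) and fell by 0.60 ± 0.130 with stimulation (adjusted p = 0.00523). The adhesion molecule gene L1cam, which joins the receptor complex, averaged 14.4 CPM in rTMS-MSCs, 19.9 CPM in MSCs and 9.35 CPM in OGDR. Its log2 fold change was 1.08 ± 0.120 in MSCs against OGDR (adjusted p = 9.01e-07). Farp2, an exchange factor for Rac downstream of plexin, rose by 0.31 ± 0.0791 in MSCs against OGDR (adjusted p = 0.00788). Plxna1, a plexin that signals for Nrp1, fell by 0.29 ± 0.0625 in rTMS-MSCs against MSCs (adjusted p = 0.00492).

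Of 10 tested kinases and phosphatases that act on collapsin response mediators, 0 passed in MSCs against OGDR, beside 20.2% of all tested genes. By edgeR 0 also had an unadjusted p under 0.05, and 0 passed by DESeq2 and by limma. In rTMS-MSCs against MSCs 1 rose and 2 fell, beside 18.1% of all tested genes called. In rTMS-MSCs against OGDR likewise 1 rose and 2 fell, which is near the 32.4% of all tested genes called there. Gsk3b averaged 31.9 CPM in rTMS-MSCs, 42.1 CPM in MSCs and 40.4 CPM in OGDR. It fell in rTMS-MSCs against MSCs by 0.40 ± 0.0884 (edgeR adjusted p = 0.00577), and without both replicate 3 libraries this was -0.28 and did not pass (adjusted p = 0.0586). The related gene Gsk3a, named here after its values were seen, was more abundant, at 126 CPM in rTMS-MSCs, 112 in MSCs and 113 in OGDR. Gsk3a rose by 0.18 in rTMS-MSCs against MSCs (edgeR adjusted p = 0.0355) and by 0.16 in rTMS-MSCs against OGDR (adjusted p = 0.0367). Cdk5, the priming kinase of the family, did not pass in any comparison (adjusted p = 0.751, 0.0898 and 0.156 for MSCs against OGDR, rTMS-MSCs against MSCs and rTMS-MSCs against OGDR). Of 5 binding partners, which include the kinesin gene Kif5b and the actin regulator gene Cyfip1, 0 rose and 2 fell in each comparison with stimulation. Of all tested genes, 10.9% fell in rTMS-MSCs against MSCs and 16.2% in rTMS-MSCs against OGDR. In MSCs against OGDR 0 binding partners passed by edgeR, beside 20.2% of all tested genes. There was 1 at an unadjusted p under 0.05, and 1 passed by DESeq2 and by limma.

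Of 7 tested kinases that act on stathmins, 3 rose and 0 fell in MSCs against OGDR, 1 rose and 1 fell in rTMS-MSCs against MSCs, and 4 rose and 2 fell in rTMS-MSCs against OGDR. Beside these counts, 20.2%, 18.1% and 32.4% of all tested genes passed in the same comparisons. Pak1, which phosphorylates Stmn1 downstream of Rac, averaged 90.5 CPM in rTMS-MSCs, 88.8 CPM in MSCs and 40.3 CPM in OGDR. It rose by 1.14 ± 0.0685 with stem cells (edgeR adjusted p = 1.05e-10), and the mitotic kinase gene Aurkb and the protein kinase A subunit gene Prkaca rose by 0.33 and 0.31. In rTMS-MSCs against MSCs, Uhmk1, a kinase that binds and phosphorylates stathmin, fell by 0.80 ± 0.162 (adjusted p = 0.00355). The mitotic kinase gene Cdk1, named here after its values were seen, rose by 0.22 ± 0.0529 in the same comparison (edgeR adjusted p = 0.00901). Mapk8, the stress kinase JNK1 that acts on Stmn2, fell by 0.39 ± 0.0851 in rTMS-MSCs against OGDR (adjusted p = 0.00162).

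Rest, the repressor that was found through its silencing of Stmn2 outside neurons, had 10.3, 10.7, 6.79 and 11.5 CPM in rTMS-MSCs, 23.2, 18.5, 32.8 and 20.1 CPM in MSCs, and 19.1, 19.2, 24.5 and 18.2 CPM in OGDR. Every stimulated library was below every library of the other groups. It fell by 1.27 ± 0.171 in rTMS-MSCs against MSCs (edgeR adjusted p = 5.95e-04) and by 1.04 ± 0.172 in rTMS-MSCs against OGDR (adjusted p = 1.08e-04). Its corepressor Rcor1 fell by 0.31 ± 0.0607 in rTMS-MSCs against MSCs (adjusted p = 0.00274). In the same libraries Stmn2 stood at 9 counts in rTMS-MSCs against 14 in MSCs, as given above. Of the 3 genes listed for their bearing on Stmn2 transcripts, 0 passed in MSCs against OGDR by edgeR (1 at an unadjusted p under 0.05, and 0 by DESeq2 and by limma), and 0 rose and 2 fell in each comparison with stimulation. Among all tested genes, 20.2% passed in MSCs against OGDR. The share that fell was 10.9% in rTMS-MSCs against MSCs and 16.2% in rTMS-MSCs against OGDR. Tardbp, whose protein guards Stmn2 transcripts against faulty splicing in human neurons, had log2 fold changes of 0.02, 0.01 and 0.04 in the 3 comparisons (adjusted p = 0.776, 0.889 and 0.605).

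**Figure D5:**
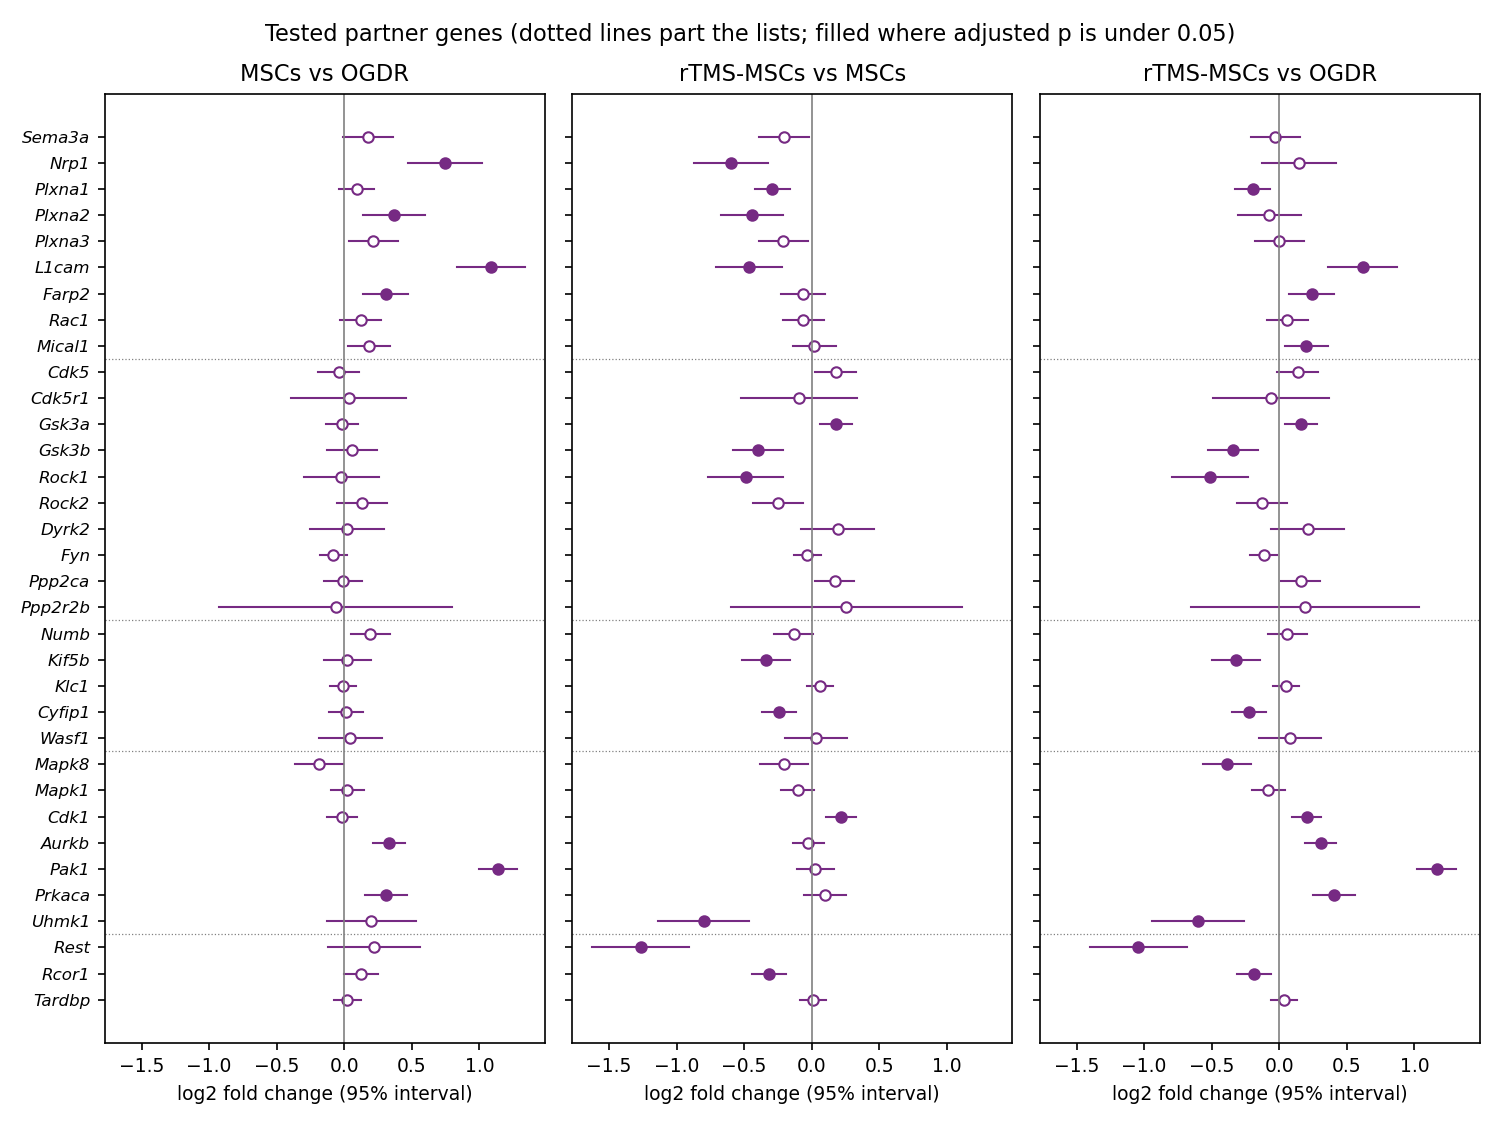
Log2 fold changes with 95% intervals (x axis) of the 34 tested partner genes (y axis) in the 3 comparisons, with dotted lines between, from the top, genes for semaphorin 3A reception, enzymes acting on collapsin response mediators, their binding partners, kinases acting on stathmins and genes that control Stmn2 transcripts. Filled points passed at an adjusted p under 0.05. Pak1 lies at 1.14 and 1.17 in the comparisons with OGDR, and Rest at -1.27 and -1.04 in those with rTMS-MSCs.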

How the data were processed

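RNA of 12 libraries was sequenced, and the table deposited by the authors holds raw read counts per gene. Reads were aligned with HISAT2 2.1.0 to mRatBN7.2 and counted with HTSeq 0.11.2, per the submitters' processing notes, which also name DESeq2 1.40.1. No strand setting is stated, so reads of overlapping genes on opposite strands cannot be told apart. The series text speaks of a microarray and 20 samples, whereas the labels give 12 sequencing libraries. Summary lines of HTSeq were left out, of which reads in no gene made up 51.7% to 52.7% of all reads per library.

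Counts were filtered with edgeR 4.0.16 (filterByExpr, minimum count 10, minimum total 15), which kept 13692 of 30454 genes, and scaled by TMM. All 12 libraries entered one quasi-likelihood fit on group, and p-values were adjusted after Benjamini and Hochberg within each comparison. CPM values are TMM-scaled, and log2 CPM used a prior count of 2. The steps were tested on simulated data in R 4.3.3. DESeq2 1.42.0, limma 3.58.1 (voom with quality weights), other scalings and filters, a replicate block and leaving out libraries served as alternatives. All 9 members are described. Partner genes past the threshold could be named, up to 6 per comparison by smallest p, together with Rest, Tardbp, Gsk3b, Cdk5 and Mapk8. For each tested member up to 3 genes of nearest pattern could be named. The members and the lists were chosen with earlier results of these data known. Depth of 18246250 to 20471838 counts makes 1 CPM about 19.6 counts, and intervals and floors cover counting error only. No 2 libraries of a group agreed within sampling noise, with a chi-square of at least 3.98 per degree of freedom. Promoter windows are RefSeq sequence of build GRCr8, a different build from that of the counts, and were used by gene symbol only.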

Additional observations from a re-analysis of the deposited data

How the results depend on the processing

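In 22 alternatives per comparison the number of members called, Stmn4 left out, ran from 3 to 4 in MSCs against OGDR, from 2 to 3 in rTMS-MSCs against MSCs and from 2 to 3 in rTMS-MSCs against OGDR. Of the log2 fold changes of the 6 tested members under the alternatives that gave an adjusted p, 372 kept direction and side of the threshold, 6 passed in addition, 3 no longer passed and 6 turned direction. The 372 include 21 of Stmn4 in each comparison with OGDR, where the filter favoured a difference. In rTMS-MSCs against OGDR, Dpysl3 turned to 0.00 (0.00260) under voom, 0.10 without rTMS-MSCs replicate 3, 0.04 without OGDR replicate 3 and 0.10 without both replicate 3 libraries, and Dpysl5 to 0.0649 without rTMS-MSCs replicate 1 and 0.01 without OGDR replicate 3. None of these passed, and with single libraries left out Dpysl3 ran from -0.193 to 0.104 and Dpysl5 from -0.614 to 0.0649. Among partner genes, Gsk3b in MSCs against OGDR turned to -0.0347 without MSCs replicate 3 and -0.0328 without both, with a range of -0.0347 to 0.107 over single libraries left out. Tardbp in rTMS-MSCs against MSCs ran from -0.00309 to 0.0325 when single libraries were left out, and turned to -0.00210 without rTMS-MSCs replicate 1, -0.00309 without MSCs replicate 1 and -0.00299 without MSCs replicate 2. In rTMS-MSCs against MSCs, Stmn4 passed under voom (2.97, adjusted p = 0.00617), Cdk5 (0.22) and Mapk8 (-0.26) passed without rTMS-MSCs replicate 4, and the log2 fold change of Stmn1 was 0.22 without both replicate 3 libraries (adjusted p = 0.0129). The cause of these changes was not tested. The number of genes called in rTMS-MSCs against MSCs was 2475, but 1480 without rTMS-MSCs replicate 3, 1313 without MSCs replicate 1, 1006 without MSCs replicate 3 and 677 without both replicate 3 libraries. With the replicate number as a block (replicate block) and Stmn4 left out, 3, 3 and 2 members were called in MSCs against OGDR, rTMS-MSCs against MSCs and rTMS-MSCs against OGDR. These counts equal those without the block. In all, 2577, 1995 and 4185 genes were called with the block. The deviations from group means gave no sign that the numbers pair the libraries. Of 12 same-numbered pairs, 1 had a correlation over 0.1 (-0.205 to 0.128, against -0.183 to 0.239 in other pairs). Just 1 library correlated best with its own number in both other groups. With 4 libraries a group, such correlations cannot exclude shared cultures or days. The filter of 1 CPM in 4 libraries left out Stmn4 and Dpysl5, which gave no value there. DESeq2 gave no adjusted p for Dpysl5 and Stmn4 in rTMS-MSCs against MSCs. Low counts limited the precision for Stmn2, Stmn3, Stmn4 and Dpysl5, while Dpysl4 had no count.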

Other observations

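A pair of genes outside the families was looked at after values were seen, because their names link them to the members. Stmnd1, which codes for a protein with a stathmin domain, had 11, 23, 26 and 22 counts in rTMS-MSCs, 19, 30, 31 and 21 in MSCs, and 48, 42, 30 and 20 in OGDR. The 3 groups overlapped. Dpys, the dihydropyrimidinase after which the Dpysl genes are named, had 2, 0, 4 and 0 counts in rTMS-MSCs, 2, 2, 10 and 1 in MSCs, and 2, 6, 1 and 7 in OGDR, so the enzyme gene was near the limit of detection in every group.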
